A study of Mus musculus with 9 samples.

Results

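The Hedgehog ligands, their membrane receptors and inhibitors, and the GLI transcription factors were followed in 3 lines of mouse embryonic stem cells (mESCs). The members were chosen by name: Dhh, Ihh, Shh, Ptch1, Smo, Hhip, Gli1, Gli2 and Gli3, 9 of the 21713 genes with a probe in the series table. Each member had 1 probe of 60 bases in that table. Of the 9 probes, 4 (Ihh, Ptch1, Smo and Gli1) were well above background on all 9 arrays, 2 (Shh and Hhip) on none, and 3 (Dhh, Gli2 and Gli3) on some.

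All 9 samples were E14Tg2a cells, a male mESC line on a 129P2/OlaHsd background, grown without feeder cells on gelatin in medium with serum and LIF, and each was hybridised to 1 single-colour Agilent array. The 3 groups held 3 arrays each: the parental line (wild type, WT), a line with both alleles of Ring1B disrupted by deletion of an exon (Ring1B-/-, KO), and a line in which both alleles carry the I53A substitution (Ring1B I53A/I53A, I53A). RING1B is the subunit of Polycomb repressive complex 1 that places ubiquitin on histone H2A, and the I53A protein enters the complex but has lost this activity. The comparisons address which transcripts differ without RING1B and which differ with the I53A protein. The authors reported that RING1B binding and H3K27me3 at target sites were also reduced in I53A cells. I53A against WT therefore does not isolate the ligase activity. Both mutants were derived from the WT line, and each genotype is represented by 1 line, so that the genotype and the line cannot be told apart. The replicates were described as biological, with no statement that they were separate cultures, and p-values measure only the spread between these samples.

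Hedgehog ligands are secreted, lipid-modified proteins that bind PTCH1. Free PTCH1 holds the membrane protein SMO inactive. Ligand binding releases SMO, which acts through the primary cilium to turn the GLI factors from repressors into activators, and Gli1, Ptch1 and Hhip are themselves transcribed in response. The pathway is best known from the patterning of the neural tube, limb and gut, and genes of developmental signalling pathways are common targets of Polycomb complexes.

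Levels are given as log2 of the background-subtracted probe intensity after quantile normalisation, with the values of arrays 1, 2 and 3 of a group in that order and then the mean ± SD (n = 3 arrays). A change is the difference of 2 group means on that scale (log2FC) with its standard error (SE) from a limma model of all 9 arrays. A gene was called where it changed by over 2-fold with a Benjamini-Hochberg adjusted p under 0.05. Where the dimmer group was not above background on some or all arrays, the change is written as "at least" a fold. For that fold, each dim signal was raised, if lower, to the lowest signal of any probe well above background on that array. A dim signal already over this limit was kept, as for Gli2 on KO array 1 (4.54, limit 3.68). The fold therefore depends on the limit chosen, would be smaller with a higher limit, and is not a strict minimum. That fold applies to this processing only, and with normexp background correction the changes of Dhh and Gli2 against WT were smaller than it. The normexp setting added an offset of 50 to the corrected intensities, which by itself shrinks the folds of dim probes. A probe's brightness depends on its sequence, so no member's level was set against that of another.

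Depending on the array, 45.4% to 57.5% of tested probes rose clearly over background, which limits the precision together with the 3 arrays per group. Rnf2, the gene of RING1B, gave 8.32, 8.27 and 8.47 in WT, 7.35, 7.92 and 8.08 in KO and 8.69, 9.10 and 8.59 in I53A, and because the place of this probe with respect to the deleted exon is unknown here, it does not check the labels. All 9 measured mESC markers were above background on every array. In KO 1 of them was called, Sox2 (lower, log2FC −1.03, limma adjusted p 0.042), while at an unadjusted p under 0.05 Fgf4, Klf4, Nanog and Tdgf1 were higher and Esrrb and Sox2 lower, and the list's median log2FC was 0.11. In I53A 0 mESC markers were called, and Esrrb (log2FC −1.41, limma adjusted p 0.213) and Sox2 were lower at the unadjusted threshold. Of 10 markers of primitive and visceral endoderm, 4 (Amn, Gata4, Gata6 and Sox17) were called higher in KO by limma and 0 in I53A (2, Gata4 and Sox17, at an unadjusted p under 0.05), and 5 of the 10 were never above background. Summed over the list, the log2 level ran from 7.41 to 7.75 in WT, from 8.28 to 8.61 in KO and from 7.60 to 7.87 in I53A. Of 9 neural progenitor markers 2 were called higher in KO (Nes and Neurog1) and 1 in I53A (Nes), of 8 mesoderm markers 2 in KO (Eomes and Mesp2), and of 8 fibroblast markers 1 in KO (Thy1). The fibroblast markers Col1a1, Col1a2 and Col3a1 were lower in KO at an unadjusted p under 0.05 (Col1a2 with a log2FC of −0.98 and a limma adjusted p of 0.0255), and that list's median was −0.04. Over all probes 2.73% were called higher and 1.11% lower in KO, and 0.235% and 0.0928% in I53A. Their part in the Hedgehog values was not tested. In bulk samples fewer cells that express a gene and less RNA per cell cannot be told apart.

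Gli1 fell in both mutants, and Dhh rose in I53A cells. In KO, 1 of the 9 members was called, Gli1, which was lower, against 1.11% of the 30170 probes called lower and 2.73% called higher. In I53A, Dhh was called higher and Gli1 lower, against 0.235% of probes called higher and 0.0928% called lower. Between KO and I53A none of the 9 was called by limma, where 0.958% of probes were called higher and 0.368% lower, and 3 members (Smo, Gli1 and Gli3) had an unadjusted p under 0.05, all lower in KO, against 5.03% of probes lower and 6.32% higher at that threshold. By the same unadjusted threshold, 5 members were lower in KO against WT (Ptch1, Smo, Gli1, Gli2 and Gli3, of which Gli3 lay at background on all arrays of both groups and has no measured change; 7.77% of probes) and 1 was higher (Dhh; 9.64%), and in I53A against WT 3 were lower (Ptch1, Gli1 and Gli2; 3.83%) and 1 higher (Dhh; 5.37%). The median log2FC of the 9 members was −0.87 in KO against WT, −0.13 in I53A against WT and −0.43 in KO against I53A, beside −0.02, −0.01 and −0.02 over all genes. These medians include members at background on all arrays compared. The median in I53A against WT is the value of Shh, whose probe was at background on all 9 arrays. The comparisons with WT share the WT arrays.

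**Figure D1:**
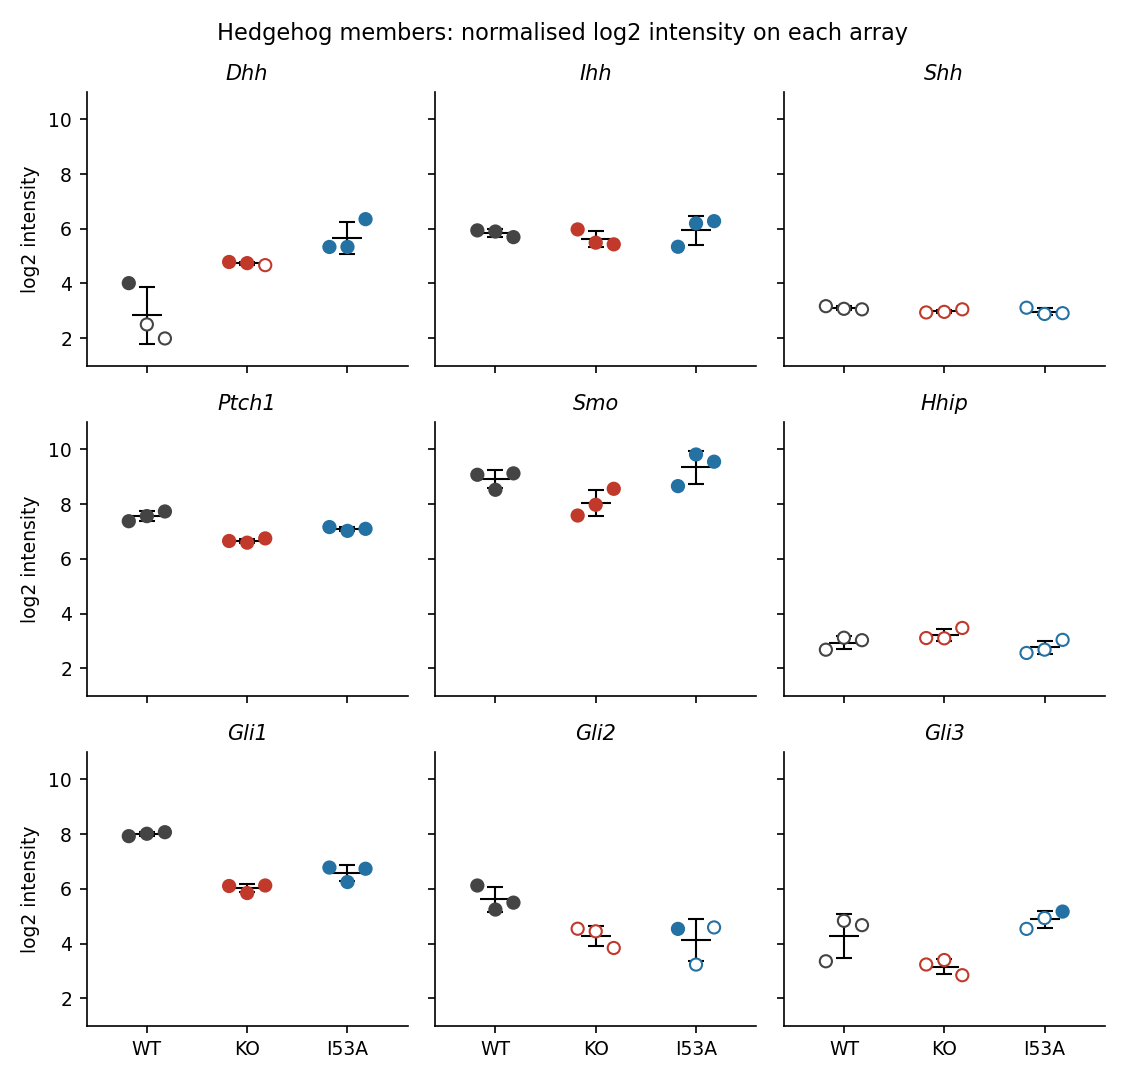
Normalised log2 intensity of each of the 9 members (vertical axis) on the WT, KO and I53A arrays (horizontal axis). Points are single arrays, filled where the probe was well above background and open where it was not, and bars are the mean and SD of 3 arrays. Gli1 lies between 7.93 and 8.07 in WT and below 7 on all mutant arrays, Dhh is highest in I53A, and Shh and Hhip are open throughout.

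Gli1 encodes the GLI factor that mainly activates transcription and whose own transcription follows Hedgehog signalling. It lies on chromosome 10, 127329882 to 127341579 in GRCm38. Its probe is shown because this gene carried the call in both mutants. The first 30 of its 60 bases, 5′ to 3′, are printed, and the place of the probe within the transcript was not established.

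Gli1 probe: ggggctgtatttagtctatgtatgttccag

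Gli1 was 7.93, 8.02 and 8.07 in WT (8.01 ± 0.07). It was 6.11, 5.85 and 6.13 in KO (6.03 ± 0.15) and 6.78, 6.25 and 6.74 in I53A (6.59 ± 0.29). All mutant arrays lay below all WT arrays, and all KO arrays lay below the I53A arrays. The level in KO was 3.94-fold lower than in WT (log2FC −1.98, SE 0.22, limma adjusted p 0.00101). In I53A it was 2.67-fold lower (log2FC −1.42, SE 0.22, limma adjusted p 0.0355). The difference between the mutants was smaller, with KO lower by a log2FC of −0.56 (95% interval −1.06 to −0.06), and did not pass the test (limma adjusted p 0.358). The fall in KO was called in all 20 alternative analyses, with log2FC between −2.03 and −1.09. Within slide 1, which held 2 arrays of each group, it was −1.99 in KO (limma adjusted p 0.0410) and −1.46 in I53A (0.351). Slide 2 held 1 array of each group, too few for a value of its own. The call in I53A rested on all 9 arrays, since leaving out any 1 of the 9 raised the limma adjusted p to between 0.0503 and 0.148, with log2FC from −1.51 to −1.25. With slide as a block it was 0.0508. With the array number as a block it was 0.0984, and with the row of the slide as a block 0.0778. Same-numbered WT and I53A arrays also shared a row. With normexp background correction the fall of 0.79 on the log2 scale passed the p threshold (limma adjusted p 0.00615) and was under 2-fold.

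Gli2, on chromosome 1, 118834061 to 119054405, encodes the main GLI activator in the response to ligand. It was 6.12, 5.25 and 5.50 in WT (5.62 ± 0.45), with all 3 arrays above background. In KO it was 4.54, 4.45 and 3.84 (4.28 ± 0.38), all at background, and in I53A 4.54, 3.23 and 4.59 (4.12 ± 0.77), with 1 array above it. All WT arrays lay above all mutant arrays. In the processing reported here the difference amounted to at least 2.30-fold in KO (log2FC −1.34, SE 0.40) and at least 2.32-fold in I53A (log2FC −1.50, SE 0.40). Neither passed the test (limma adjusted p 0.0974 and 0.206). Leaving out I53A array 2 brought Gli2 to a call in KO against WT (limma adjusted p 0.0439), as did the row of the slide as a block (0.0345). It was not called in KO in 10 of 11 other settings or in 8 of 9 analyses with 1 array left out (adjusted p up to 0.289). With normexp background correction the log2FC was −0.62 in KO (limma adjusted p 0.202) and −0.73 in I53A (0.353), smaller than those "at least" folds.

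Gli3, on chromosome 13, 15463723 to 15730026, encodes the GLI factor that acts mostly as a repressor. It was above background on 1 of the 9 arrays, the third of I53A. Its values were 3.35, 4.83 and 4.67 in WT (4.29 ± 0.81), 3.24, 3.40 and 2.85 in KO (3.16 ± 0.29) and 4.54, 4.93 and 5.17 in I53A (4.88 ± 0.32). The WT arrays spanned the gap between the mutants, and the KO and I53A arrays did not overlap. No fold is given for KO against WT, both of which lay at background. Gli3 was lower in KO than in I53A by a log2FC of −1.72 (SE 0.38, limma adjusted p 0.0656), which did not pass the test. No "at least" fold is given, since only 1 of the I53A arrays was above background. That difference was called with 75th percentile scaling (0.0307), with only those groups in the model (0.0381) and without WT array 1 (0.0187). It was not called in 8 of the 10 other settings that kept the probe. Among these, normexp background correction gave a log2FC of −0.31 (limma adjusted p 0.245) and slide 1 alone −1.61 (0.267).

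Ptch1 encodes the receptor that binds the ligands and restrains SMO, and like Gli1 it is a classical transcriptional target of the pathway. It lies on chromosome 13, 63508328 to 63573460. The 250 bases before the start site used by RefSeq are shown because its mean, like that of Gli1, was lower in both mutants. They are chr13:63565736-63565985 of GRCm38.p6, minus strand, inside the gene as annotated, since other transcripts start further upstream. Capitals mark the GC box GGGCGG or its reverse complement.

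Ptch1 promoter: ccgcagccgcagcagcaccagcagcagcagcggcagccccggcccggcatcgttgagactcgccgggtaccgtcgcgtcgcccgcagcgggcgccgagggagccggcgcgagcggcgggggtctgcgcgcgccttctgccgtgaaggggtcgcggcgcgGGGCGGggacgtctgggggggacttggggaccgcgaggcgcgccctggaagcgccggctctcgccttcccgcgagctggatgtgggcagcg

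Ptch1 was 7.38, 7.56 and 7.73 in WT (7.56 ± 0.18). It was 6.65, 6.59 and 6.75 in KO (6.66 ± 0.08) and 7.16, 7.02 and 7.10 in I53A (7.09 ± 0.07). The 3 groups did not overlap, with WT highest and KO lowest. In KO the level was 1.86-fold lower than in WT (log2FC −0.89, SE 0.20, limma adjusted p 0.0356), past the p threshold and under the 2-fold limit. Gli1 and Ptch1 were the 2 members lower in KO at an adjusted p under 0.05 irrespective of size, against 1.32% of probes, and 0 were higher, against 2.88%. Leaving out any 1 of the 9 arrays raised the limma adjusted p of Ptch1 in KO to between 0.0508 and 0.134. It stayed under 0.05 in 6 of 11 other settings. Among the rest, within slide 1 its log2FC was −0.80 (0.233), and with the row of the slide as a block the adjusted p was 0.0534. In I53A the log2FC was −0.46 (95% interval −0.91 to −0.01), which did not pass the test (limma adjusted p 0.529).

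Smo encodes the signal-transducing membrane protein of the pathway and lies on chromosome 6, 29735497 to 29761366. It was 9.07, 8.52 and 9.12 in WT (8.91 ± 0.33), 7.58, 7.98 and 8.56 in KO (8.04 ± 0.49) and 8.66, 9.81 and 9.55 in I53A (9.34 ± 0.61). The KO and WT arrays overlapped, as did the WT and I53A arrays, while every KO array lay below every I53A array. Smo was 2.46-fold lower in KO than in I53A (log2FC −1.30, SE 0.36), which did not pass the test (limma adjusted p 0.144). Against WT the log2FC was −0.87 in KO (limma adjusted p 0.241) and 0.43 in I53A (0.763). A second Smo probe, not in the series table, was above background on all 9 arrays and gave 7.90 ± 0.17 in WT, 7.47 ± 0.32 in KO and 8.02 ± 0.16 in I53A, with smaller differences from WT of −0.43 and 0.12 on the log2 scale.

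Hhip, on chromosome 8, 79965850 to 80058060, encodes a membrane protein that binds and sequesters the ligands. Its probe was at background on all 9 arrays, between 2.56 and 3.47, and no fold is given. A second Hhip probe outside the series table was likewise at background on all 9.

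**Figure D2:**
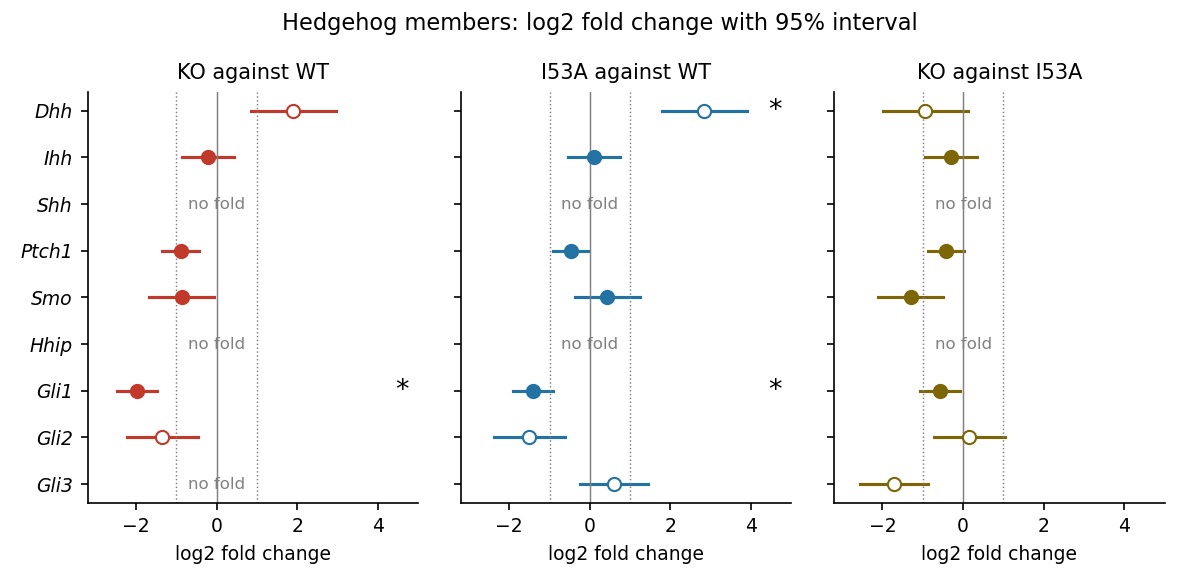
Log2 fold change of each member (horizontal axis) for each pair of groups, with its 95% interval from limma. Filled points are members above background on all arrays of both groups, open points those at background on some, dotted lines mark 2-fold and asterisks mark calls. Gli1 is called in both mutants and Dhh in I53A.

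Dhh encodes Desert hedgehog, the ligand best known from Sertoli cells and Schwann cells. It lies on chromosome 15, 98881615 to 98898562. Its probe and the 250 bases before its start, chr15:98898541-98898790 of GRCm38.p6 on the minus strand, are shown because it was the member called higher. Capitals mark the GC box or its reverse complement.

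Dhh probe, first 30 bases: ccatgggtgttccttacaatccgccacaca

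Dhh promoter: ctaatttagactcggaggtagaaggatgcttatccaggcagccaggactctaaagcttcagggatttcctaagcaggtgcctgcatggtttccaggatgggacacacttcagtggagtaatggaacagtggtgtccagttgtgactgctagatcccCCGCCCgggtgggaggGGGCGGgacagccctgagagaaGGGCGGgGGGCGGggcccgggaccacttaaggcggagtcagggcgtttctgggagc

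Dhh was 4.01, 2.5 and 1.99 in WT (2.83 ± 1.05), with only the first array above background. It was 4.79, 4.74 and 4.67 in KO (4.73 ± 0.06), with 2 arrays above background, and 5.33, 5.34 and 6.35 in I53A (5.67 ± 0.59), with all 3. The 3 groups did not overlap, in the order WT, KO, I53A. Dhh was at least 3.10-fold higher in I53A than in WT (log2FC 2.84, SE 0.47, limma adjusted p 0.0438). In KO it was at least 1.62-fold higher (log2FC 1.90, SE 0.47), which did not pass the test (limma adjusted p 0.0542). KO lay below I53A by a log2FC of −0.94 (95% interval −1.99 to 0.11), which did not pass the test (limma adjusted p 0.509).

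The WT level of Dhh depended on array 1. Without that array the limma adjusted p was 0.0165 in I53A (log2FC 3.43) and 0.0082 in KO (log2FC 2.49). Leaving out any other array ended the call in I53A, with adjusted p up to 0.159. Within slide 1 the log2FC was 2.08 in I53A (limma adjusted p 0.390) and 1.45 in KO (0.243). In KO the rise was called in 3 of 11 other settings and in 1 of 9 analyses with 1 array left out. With normexp background correction its log2FC in KO was 0.29 (limma adjusted p 0.744), smaller than the "at least" fold given above. In I53A the adjusted p was 0.0719 with slide as a block, 0.134 with the array number as a block and 0.0963 with the row of the slide as a block, and with normexp background correction the log2FC was 1.00 (0.420).

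Ihh, which encodes Indian hedgehog, a ligand of cartilage and gut, lies on chromosome 1, 74945315 to 74951672. It was above background on every array, at 5.94, 5.90 and 5.69 in WT (5.84 ± 0.13), 5.98, 5.49 and 5.43 in KO (5.63 ± 0.30) and 5.34, 6.2 and 6.28 in I53A (5.94 ± 0.52). The 3 groups overlapped. No difference was detectable with 3 arrays per group, with 95% intervals for the log2FC of −0.86 to 0.43 in KO and −0.55 to 0.74 in I53A (limma adjusted p 0.770 and 0.956).

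Shh, on chromosome 5, 28456840 to 28467101, encodes Sonic hedgehog, the ligand of the neural tube floor plate and the limb. Its probe stayed at background on all 9 arrays, between 2.88 and 3.17, so that no change could be measured.

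Counting members whose arrays did not overlap between groups gave 4 lower (Shh, Ptch1, Gli1 and Gli2) and 1 higher (Dhh) in KO against WT, where 12.5% and 11.6% of all probes did so. In I53A against WT it gave 3 lower (Ptch1, Gli1 and Gli2) and 1 higher (Dhh), against 9.34% and 8.07% of probes. For Shh this separation lay within background signal. Between the mutants, 5 members were lower in KO (Dhh, Ptch1, Smo, Gli1 and Gli3; 7.43% of probes) and 1 higher, Hhip, again within background (7.57%).

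RefSeq promoters were available here for 7 members, all but Shh and Gli1, and were compared with 32851 mouse promoters over the 250 bases before the start. The sequence GACCACCCA, the consensus bound by GLI factors, was absent on both strands from all 7, and 0.225% of all promoters hold it. A GC box (GGGCGG, both strands) was present in 6 of the 7, all but Smo, against 32.7% of all promoters. Neither CCAAT nor TATAAA was found on either strand in any of the 7, against 33.8% and 12.4% of all promoters, and none of these motifs contains another. The number of CpG dinucleotides was 9 in Dhh, 15 in Smo, 22 in Gli2, 24 in Ihh, 28 in Hhip, 34 in Gli3 and 41 in Ptch1, beside a median of 6 over all promoters. The promoters of Dhh, called higher in I53A, and Ptch1, lower in KO at an adjusted p under 0.05, had the fewest and the most CpGs of the 7. The longest run of bases that any 2 of the 9 member probes shared was 8.

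Among the other genes of the pathway, the shares called or past an unadjusted p are set beside those over all probes. Of 11 genes that release or receive the ligands, 0 were called by limma in any of the 3 comparisons, and at an unadjusted p under 0.05 there was 1 in KO (Cdon, lower; 9.09% of the list, 7.77% of probes), 1 in I53A (Scube3, higher; 5.37% of probes) and 2 between the mutants (Cdon and Scube3, lower in KO; 5.03% of probes). Their median log2FC was −0.20 in KO and 0.10 in I53A. The lowest adjusted p in KO was that of Cdon, which encodes a ligand co-receptor (log2FC −0.87, limma adjusted p 0.0571).

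A list of 26 genes held those that carry, modulate or restrain the signal between SMO and the GLI factors. Of these, 1 was called in KO (higher, 3.85% of the list, beside 2.73% of probes) and 0 in I53A or between the mutants. The called gene was Spop, an adaptor for the ubiquitin ligase that degrades GLI2 and GLI3, which was 8.77, 9.07 and 9.24 in WT and 9.89, 10.34 and 10.39 in KO (log2FC 1.18, limma adjusted p 0.0220). Its 2 other probes gave 0.71 and 0.34 and were not called (0.234 and 0.710), the mean of all its probes was not called (log2FC 0.74, 0.119), and the call was lost within slide 1 and without WT array 1, WT array 2, KO array 2 or KO array 3. Kif3a, which encodes a motor subunit needed for cilia, passed the adjusted p in KO at under 2-fold (log2FC 0.99, limma adjusted p 0.0203). It stayed under 0.05 in 5 of 9 analyses with 1 array left out and in 8 of 11 other settings. The mean of all Kif3a probes gave a log2FC of 0.78 (limma adjusted p 0.0717), and slide 1 alone 0.95 (0.175). Spop and Kif3a lie on chromosome 11, whose 1525 genes had a median log2FC of 0.26 in KO, beside −0.03 on other chromosomes. None of the 9 members lies there. Sufu, which encodes the cytoplasmic inhibitor of GLI factors, had a log2FC of 0.03 in KO (0.985) and 0.16 in I53A (0.928), and was above background on only 1 or 2 arrays of each group. At an unadjusted p under 0.05 the list held 3 higher and 4 lower of 26 in KO, beside 9.64% and 7.77% of probes. In I53A it held 1 lower (3.85% of the list), beside 3.83% of probes. Between the mutants it held 3 of 26 higher in KO than in I53A, beside 6.32% of probes.

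Of 19 genes often named as GLI targets in other tissues, 17 had a probe, 8 of these were never above background, and 0 were called by limma in KO or I53A against WT. At an unadjusted p under 0.05, 3 were higher (17.6%) and 4 lower (23.5%) in KO, beside 9.64% and 7.77% of probes. In I53A 1 was higher and 1 lower (5.88% each), beside 5.37% and 3.83% of probes. Between the mutants 3 were higher (17.6%) and 2 lower (11.8%) in KO, beside 6.32% and 5.03% of probes. Mycn, a MYC family proto-oncogene, was lower in KO than in I53A (log2FC −1.14, limma adjusted p 0.0236) and was the 1 target called between the mutants. That call was lost in 4 of 11 other settings and in 7 of 9 analyses with 1 array left out, with adjusted p up to 0.172. Against WT, Mycn and the cyclin gene Ccnd1 had a log2FC of −0.94 each in KO, with limma adjusted p of 0.0286 and 0.0413 at under 2-fold, and 0.21 and −0.13 in I53A (0.802 and 0.908). The adjusted p of Mycn in KO stayed under 0.05 in 6 of 11 other settings and in 3 of 9 analyses with 1 array left out, and that of Ccnd1 in 5 of 11 and in 0 of 9. Their arrays did not overlap between WT and KO.

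**Figure D3:**
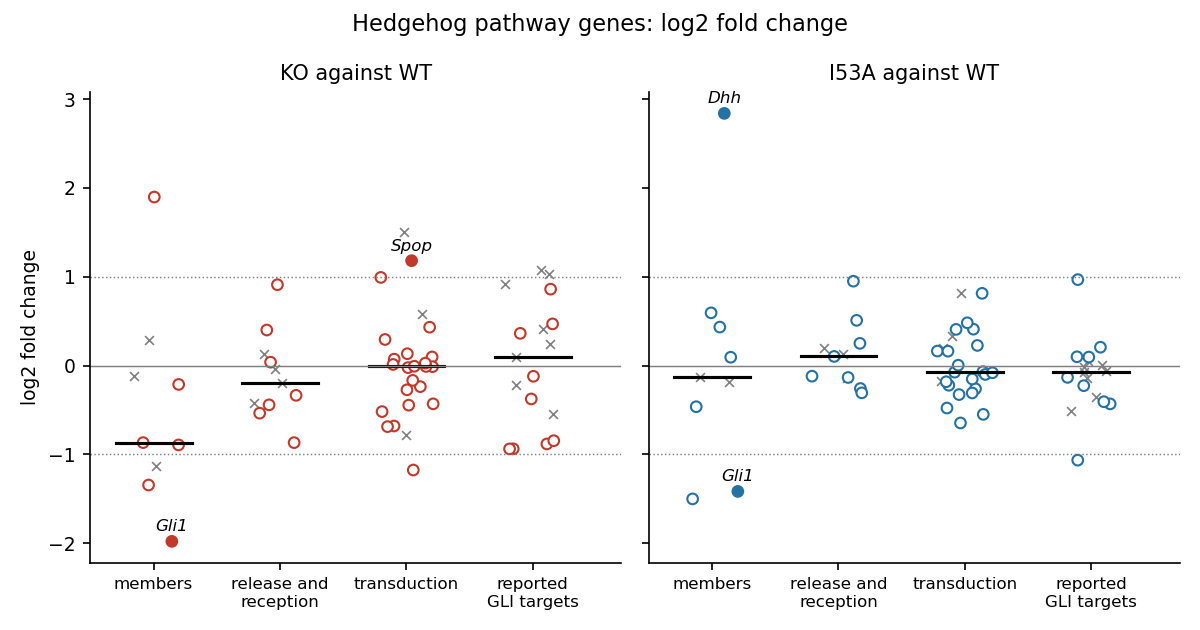
Log2 fold change (vertical axis) in KO against WT and I53A against WT of the 9 members, 11 release and reception genes, 26 transduction genes and 17 reported GLI targets, with 1 probe per gene. Filled points are calls, open points other genes, crosses genes at background on all arrays of both groups, black bars medians over all measured genes, and dotted lines 2-fold. The members' median in KO, −0.87, lies below that of the other lists.

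Gene patterns most like those of the members called were listed by Pearson correlation of log2 intensity over the 9 arrays, which share the 3 groups, among 12502 genes above background on at least 3 arrays. For Gli1 these were Mia (r = 0.994), Uap1l1 (0.981) and Atf4 (0.978). Mia, which encodes a secreted protein first found in melanoma cells, had 8.87 ± 0.13 in WT, and in KO and I53A 7.08 ± 0.11 and 7.64 ± 0.28. For Dhh they were Rbm34 (0.967), Scamp2 (0.946) and Ttll9 (0.945), and Rbm34 had 9.24 ± 0.32 in WT, and in KO and I53A 9.70 ± 0.09 and 10.18 ± 0.17. The correlations are descriptions of these 9 arrays.

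**Figure D4:**
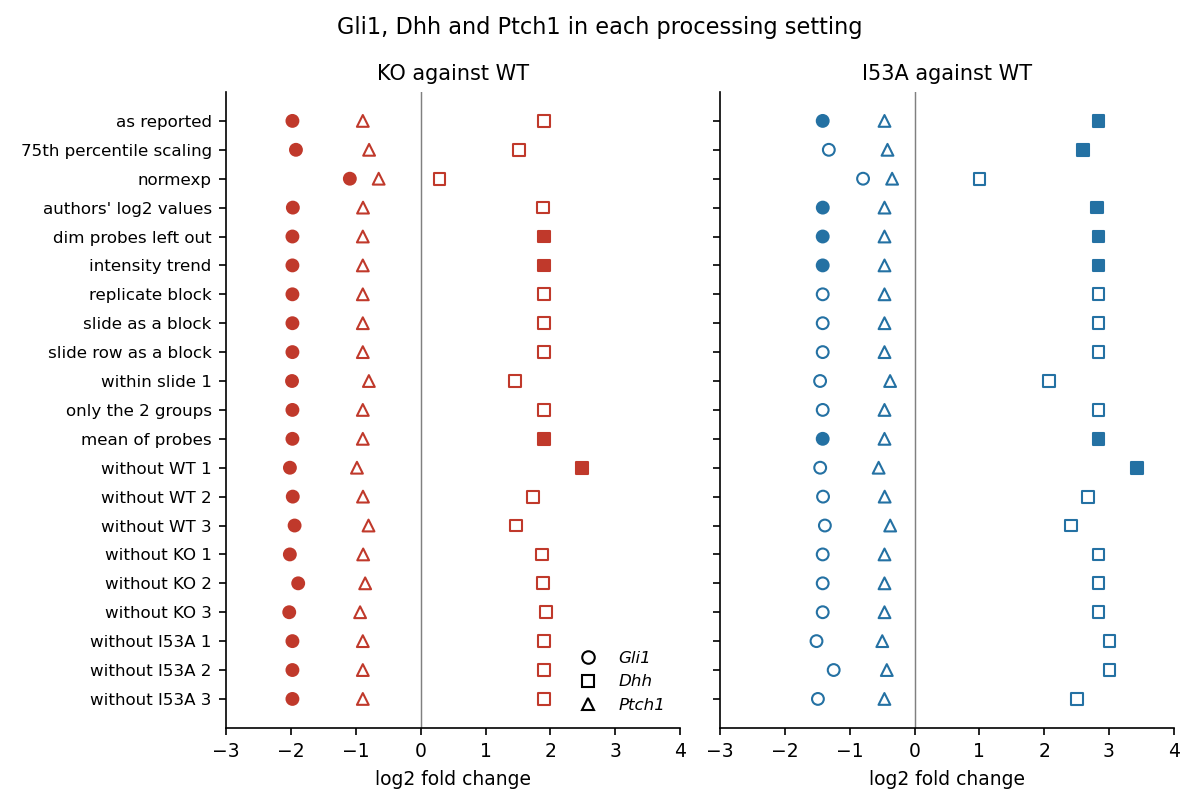
Log2 fold change (horizontal axis) of Gli1, Dhh and Ptch1 in KO against WT and I53A against WT as reported, under 11 other processing settings and with each of the 9 arrays left out in turn (vertical axis). Filled symbols are calls. Gli1 is called in KO in every row, while the calls in I53A are lost in most rows and no symbol crosses 0.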

How the data were processed

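The authors hybridised Cy3-labelled cRNA from each sample to Agilent SurePrint G3 mouse arrays and extracted the scans with Feature Extraction 11.5.1.1. The deposited scan files hold a background-subtracted intensity per spot on a linear scale. The deposited series table holds log2 intensities, quantile normalised by the authors, for 30170 probes assigned to 1 Ensembl gene (build mm10), and the authors' own fold changes and p-values, which were not used here. Members and gene lists were chosen with earlier results of these data known.

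Intensities were log2 transformed in R 4.3.3, leaving out controls and outlier flags, repeated spots were averaged, and 55681 probes were quantile normalised. limma 3.58.1 fitted 1 mean per group to the 30170 probes, with 6 residual degrees of freedom, two-sided moderated tests and Benjamini-Hochberg adjustment over all probes. A gene was represented by its brightest probe, and the 95% intervals come from the same model. Named genes were all members, every pathway gene called in a comparison, and the 3 nearest patterns of each called member. Cdon, Scube3, Sufu, Kif3a, Ccnd1 and the marker genes fall outside that rule and were named after their values were seen. Some genes of the lists are not reported here and were left out of the list counts, medians and plot. The code was tested on simulated data with known changes in KO. Of 100 changes of 1.5 on the log2 scale 48% were called, and of 100 changes of 3, 87%. Changes near 1.5 can therefore be missed with 3 arrays per group. The arrays WT 3, KO 1 and I53A 3 were on the second slide and the other 6 on the first. Each row of a slide held 1 array of each group. Deviations from the group means of same-numbered WT and I53A arrays correlated at 0.11 to 0.38 in 3 of 3 pairs. For same-numbered WT and KO arrays the values ran from −0.20 to −0.01, and for KO and I53A arrays from −0.39 to 0.11. The same-numbered WT and I53A arrays also lay in the same row of a slide. Number and row cannot be told apart for these pairs, so whether the numbers pair the samples is unknown. Arrays in the same row correlated above 0.1 in 8 of 9 pairs, and the row was added as a block after seeing the data. The column across a slide was fixed by group, so that column and group cannot be told apart. Array numbers come from the titles, although another label of all 3 KO samples reads replicate 1. Gene positions and promoters are those of RefSeq (GRCm38.p6).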

Additional observations from a re-analysis of the deposited data

Results flagged for a closer look

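Mycn was the pathway gene that differed between the mutants by the test of the difference itself. It was 10.39, 10.42 and 10.70 in WT, 9.59, 9.51 and 9.60 in KO and 10.80, 10.62 and 10.71 in I53A, and KO lay below I53A by a log2FC of −1.14 (limma adjusted p 0.0236). The call was lost with 75th percentile scaling (0.172), the array number as a block (0.0720), slide 1 alone (0.149) and only the 2 groups in the model (0.0844), and in 7 of 9 analyses with 1 array left out. Every KO array lay below every WT and I53A array. No member of the 9 passed this test between KO and I53A.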

How the results depend on the processing

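The alternatives were 11 other settings, of which the row of the slide as a block was chosen after seeing the data, and leaving out each of the 9 arrays. Gli1 was called lower in KO in all 20. The members called in KO, 1 as reported, were 2 when dim probes were left out, with an intensity trend or with the mean of all probes (Dhh joined Gli1) and with the row of the slide as a block (Gli2 joined Gli1), and 1 to 3 with 1 array left out, the 3 coming without WT array 1, where Gli3 was counted although it lay at background in both groups. The members called in I53A, 2 as reported, were 1 with 75th percentile scaling (Dhh), 0 with normexp, the replicate block, the slide block, the row of the slide as a block, slide 1 alone and only the 2 groups compared, and 0 to 1 with 1 array left out. Between KO and I53A, 0 as reported, 1 (Gli3) was called with 75th percentile scaling and with only the 2 groups, and 0 to 1 with 1 array left out. The transduction genes called in KO, 1 as reported, were 2 with 75th percentile scaling, 0 within slide 1 and with the mean of all probes, and 0 to 2 with 1 array left out. The GLI targets called between KO and I53A, 1 as reported (Mycn), were 0 with 75th percentile scaling, the replicate block, slide 1 and only the 2 groups, and 0 to 1 with 1 array left out, where the call held only without WT array 2 or WT array 3. The release and reception genes stayed at 0 in all 20. The changed signs were those of Gli2 in KO against I53A, 0.16 as reported, at −0.024 with 75th percentile scaling and −0.29 to 0.39 with 1 array left out, and of Ihh in I53A against WT, 0.09 as reported, at −0.055 with normexp, −0.15 within slide 1 and −0.076 to 0.39 with 1 array left out, and none of these values passed the test. In each case the cause was not tested.

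Over all probes, 824 were called higher and 335 lower in KO as reported, 71 and 28 in I53A, and 289 and 111 between the mutants. The other settings moved these to between 233 and 917 higher and 42 and 383 lower in KO, 1 and 156 higher and 1 and 68 lower in I53A, and 61 and 357 higher and 2 and 170 lower between the mutants.

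In the replicate block, same-numbered WT and I53A arrays shared a slide row and the KO arrays did not. With this block the limma adjusted p in I53A was 0.0984 for Gli1 and 0.134 for Dhh. Over all probes 19 were then called higher and 6 lower in I53A. With the row of the slide as a block these were 0.0778 and 0.0963, and 29 and 8 probes. The cause of the lost calls was not tested. The scans hold no mean spot signal, so normexp ran on median spot and background signals, with an offset of 50. Dim signal limits Dhh, Gli2, Gli3, Shh and Hhip, whose levels near background have no firm order.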
